A study of Mus musculus with 16 samples.

Results

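The genes described here encode plasma proteins of the complement system and of blood clotting, nearly all of them made by the liver. The set is a list of 37 gene symbols grouped by function, 20 of complement and 17 of clotting. It was chosen with earlier results of these data known, so counts beside shares of all genes describe the set and do not test it. A probe row carried the symbol of 33 of them, and 32 passed the filter on low signals and were tested among 7788 genes, out of 16593 named on the array. C3, Cfd, Cfp and Cpb2 had no row under their symbol in the annotation used. The row of Fgb, the fibrinogen beta chain, lay between 5.82 and 6.12 on the log2 scale on all 16 arrays, under the filter at 6.29, and was not tested.

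Total liver RNA came from 16 male C57BL/6 mice, 1 array per mouse, in 4 groups of 4. The groups were wild type (WT) littermates and CYP7A1 transgenic (Tg) mice, each fed either standard chow or a Western diet with 42% of calories from fat and 0.2% cholesterol. Cyp7a1 encodes the first and rate-limiting enzyme of the classical route from cholesterol to bile acids. Mice started at 12 to 14 weeks of age, ate their diet for 4 months, were housed singly and were fasted for about 16 h before the liver was taken, at a labelled age of 6 months. The transgene's promoter and species of origin were not stated in the labels read here.

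The Cyp7a1 row was lower in livers labelled transgenic. On chow the WT-labelled livers read 11.69 ± 0.42 (log2 signal, SD, n = 4) and the Tg-labelled livers 7.07 ± 0.63, and on the Western diet 11.21 ± 1.02 and 6.60 ± 0.52. Whether this row reads the transgene's transcript or the mouse's own was not checked, since probe sequences were not used. It therefore does not check the labels, every direction between genotypes below rests on them, and the groups are called WT-labelled and Tg-labelled throughout. Mean raw intensity per array ran from 348.1 to 446.6 and differed by group. In WT-labelled livers it was 400.8 to 446.6 on chow and 373.2 to 396.7 on the Western diet. In Tg-labelled livers it was 348.1 to 401.0 on chow and 354.9 to 370.0 on the Western diet. The part of raw intensity in the differences below was not tested. Rank correlation between arrays was 0.931 to 0.953 within groups and 0.918 to 0.942 between groups. The summed signal of 10 tested hepatocyte markers ran from 130180 to 141191 over the 16 arrays. Apoa1, Ttr, Serpina1b, Ahsg and Hpx make up most of this sum. Bringing arrays to common quantiles holds such bright signals near common values, so the sum cannot show whether hepatocyte content was equal. The mean log2 signal of the 10 markers was 12.63 to 12.80 in WT-labelled livers on chow and 12.48 to 12.57 in those on the Western diet. It was 12.69 to 12.90 and 12.58 to 12.72 for the Tg-labelled ones. Pck1 fell by 1.55 and Alb by 0.38 with the Western diet in WT-labelled livers, Cps1 fell by 0.79 with it in Tg-labelled ones, and Pck1 was higher by 1.27 in Tg-labelled livers on the Western diet. None of the 10 passed between genotypes on chow, where 9.95% of all genes did. The row of Alb, albumin, read 6.29 to 6.98, close to the filter. The part of these markers in the differences below was not tested.

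Complement is a cascade of plasma proteases that tags microbes and damaged cells and ends in a pore through their membrane. It starts from C1q bound to antibody, from lectins bound to sugars, or spontaneously through factor B, and the routes meet at C3 and end in the membrane attack complex. Clotting is a second protease cascade, which runs from the contact factors or tissue factor to thrombin and fibrin and is braked by protein C with protein S. Hepatocytes make most of these proteins, whereas C1q comes mainly from macrophages, in the liver the Kupffer cells.

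Differences are given on the log2 scale with the standard error (SE) of the limma fit, and a gene is said to rise or fall where its adjusted p was under 0.05 over all 7788 genes. Between genotypes on chow, 5 of the 32 tested genes passed the test, 3 higher and 2 lower in Tg-labelled livers, where 9.95% of all genes tested passed (4.55% higher, 5.41% lower). With Western feeding 12 passed, 11 higher and 1 lower, against 15% of all genes (6.51% higher, 8.53% lower). Between diets, 10 passed in WT-labelled livers, 5 higher and 5 lower on the Western diet, against 18.8% (10.7% higher, 8.09% lower). In Tg-labelled livers 8 passed, 7 higher and 1 lower, against 9.73% (5.07% higher, 4.66% lower). The genotype difference itself differed between diets, tested as an interaction, for 10 of the 32, 6 with a positive and 4 with a negative value, against 5.42% (2.17% positive, 3.25% negative).

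The middle of the set moved little on chow and more on the Western diet. The median Tg minus WT difference over the 32 genes was 0.04 on chow and 0.21 on the Western diet, beside −0.003 and 0.01 over all genes tested. The median Western minus chow difference was −0.02 in WT-labelled livers and 0.18 in Tg-labelled ones, beside −0.03 and −0.001 over all genes. In all, 18 genes passed in at least 1 of the 5 comparisons and 14 in none. The like share of all genes tested was not counted. Scaling arrays to a common median in place of quantile normalization turned the chow split to 3 higher and 6 lower, and the diet split in WT-labelled livers to 3 higher and 8 lower. That scaling also moved the median of all genes on chow downward, and the shares of all genes passing with it are not given here.

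**Figure D1:**
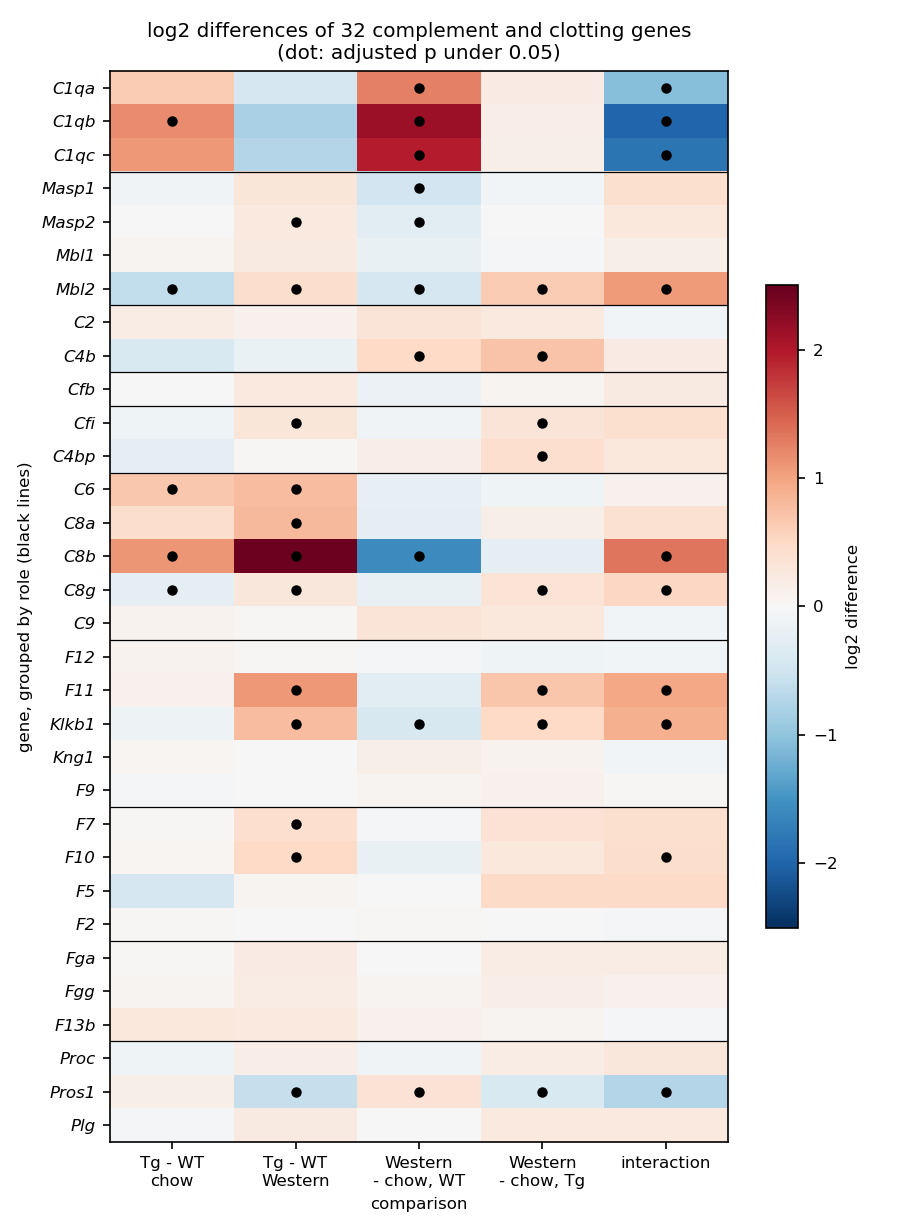
Log2 differences of the 32 tested genes (lines, grouped by role) in the 4 comparisons between groups and in the interaction (columns). Red is higher in the first-named group, blue lower, and a dot marks an adjusted p under 0.05. The second column, Tg minus WT on the Western diet, holds 12 dots, 11 of them on red cells, with C8b the deepest at 2.45.

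The promoters of 5 genes are printed here because these genes carried large or opposed differences, and because C8b and C8a, like F11 and Klkb1, are next to each other in the genome with no coding gene between them. Each stretch is 300 bases, from 250 before to 50 after the gene's start in RefSeq's GRCm38.p6 annotation, read 5′ to 3′ on the gene's strand. C8b is at chr4:104766067-104766366 (plus strand), C8a at chr4:104876349-104876648 (minus), Klkb1 at chr8:45294786-45295085 (minus), F11 at chr8:45261982-45262281 (minus) and Pros1 at chr16:62854057-62854356 (plus). Capitals mark a match to 1 of 4 motifs: STAT (TTCNNNGAA), HNF4 (TGNACTTTG), HNF1 (GTTAAT and ATT with any 1 base between them) and C/EBP (TTGCNNAA), each searched on both strands.
C8b: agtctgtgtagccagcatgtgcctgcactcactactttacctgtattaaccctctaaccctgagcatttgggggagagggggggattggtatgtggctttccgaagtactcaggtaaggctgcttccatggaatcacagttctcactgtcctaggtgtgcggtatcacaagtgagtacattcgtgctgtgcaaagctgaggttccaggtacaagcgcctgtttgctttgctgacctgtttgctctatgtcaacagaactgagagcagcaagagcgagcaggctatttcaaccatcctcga
C8a: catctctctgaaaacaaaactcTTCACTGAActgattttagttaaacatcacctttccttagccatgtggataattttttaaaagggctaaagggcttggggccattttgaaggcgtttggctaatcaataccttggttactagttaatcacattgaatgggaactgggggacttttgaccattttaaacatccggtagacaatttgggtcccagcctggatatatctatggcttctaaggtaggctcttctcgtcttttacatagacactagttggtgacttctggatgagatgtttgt
Klkb1: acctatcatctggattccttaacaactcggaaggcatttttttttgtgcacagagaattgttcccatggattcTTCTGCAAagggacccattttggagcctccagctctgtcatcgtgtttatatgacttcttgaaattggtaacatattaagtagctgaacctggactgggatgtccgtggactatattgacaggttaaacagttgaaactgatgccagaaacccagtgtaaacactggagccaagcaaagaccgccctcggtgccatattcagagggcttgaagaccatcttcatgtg
F11: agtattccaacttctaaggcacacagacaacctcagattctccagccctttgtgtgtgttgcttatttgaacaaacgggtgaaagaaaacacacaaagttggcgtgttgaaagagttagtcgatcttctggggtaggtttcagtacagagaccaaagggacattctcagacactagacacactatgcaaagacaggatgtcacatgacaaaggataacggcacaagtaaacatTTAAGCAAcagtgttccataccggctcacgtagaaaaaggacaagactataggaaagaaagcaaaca
Pros1: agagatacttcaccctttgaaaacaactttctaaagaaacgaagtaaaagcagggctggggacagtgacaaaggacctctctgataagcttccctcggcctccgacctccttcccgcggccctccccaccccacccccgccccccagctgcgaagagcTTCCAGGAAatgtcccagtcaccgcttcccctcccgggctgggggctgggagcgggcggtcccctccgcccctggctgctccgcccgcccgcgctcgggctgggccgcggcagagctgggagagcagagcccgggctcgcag
The C8a match is to the STAT motif and begins at position −228 relative to the start. Klkb1 and F11 each hold a C/EBP match on the opposite strand, at −177 and −17. The match in Pros1 is again STAT, at −92. The C8b window holds none of the 4.

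Promoters were given for 23 of the 32 tested genes. The STAT motif was in 5 of them (C8a, F9, Fga, Masp2 and Pros1) and in 8.47% of 27025 mouse promoters of the same length. The C/EBP motif was in 5 (C9, F11, F9, Fga and Klkb1) and in 10.8% of all. HNF1 was matched in C4bp and F13b and in 0.437% of all promoters, and HNF4 in F9 alone and in 1.41%. A match is a run of letters and was not tested as a binding site.

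The terminal components, which assemble into the membrane attack pore, carried the largest genotype difference of the set. C8b, the beta chain of C8, read 9.83, 10.27, 10.65 and 10.59 on the 4 arrays of WT-labelled livers on chow, and 8.47, 8.78, 8.47 and 9.25 on the Western diet. Tg-labelled livers read 11.47, 11.15, 11.50 and 11.64 on chow and 11.15, 11.29, 11.34 and 11.002 on the Western diet. The 8 Tg-labelled arrays all lay above the 8 WT-labelled ones, and the WT-labelled arrays on the Western diet lay below all others.

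C8b was 2.15-fold higher in Tg-labelled livers on chow (log2 difference 1.11, SE 0.18, adjusted p = 0.00105, limma). On the Western diet it was 5.46-fold higher (2.45, SE 0.18, adjusted p = 7.47e-08). The Western diet lowered it 3.01-fold in WT-labelled livers (−1.59, adjusted p = 1.49e-05), whereas in Tg-labelled livers the difference was −0.25 with a 95% interval of −0.63 to 0.14 and did not pass. The interaction was 1.34 (SE 0.26, adjusted p = 0.00645).

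C6, which joins the complex ahead of C8, showed a genotype difference of similar size on both diets. WT-labelled livers read 9.48, 9.75, 9.86 and 9.92 on chow and 9.28, 9.55, 9.43 and 9.92 on the Western diet. Tg-labelled livers read 10.75, 10.08, 10.60 and 10.25 on chow and 10.22, 10.43, 10.47 and 10.16 on the Western diet, above every WT-labelled array. C6 rose in Tg-labelled livers by 0.67 on chow (SE 0.15, adjusted p = 0.0116, limma) and by 0.78 on the Western diet (SE 0.15, adjusted p = 0.00206). The interaction was 0.11 with a 95% interval of −0.34 to 0.57.

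C8a, the alpha chain of C8 and the neighbour of C8b, read 10.14, 10.56, 10.996 and 10.77 in WT-labelled livers and 11.31, 11.51, 11.52 and 11.38 in Tg-labelled ones on the Western diet, 2 groups that did not overlap. It was 1.76-fold higher there (0.81, SE 0.16, adjusted p = 0.00206, limma). On chow the difference was 0.44 (95% interval 0.10 to 0.77, adjusted p = 0.0894), and the groups met: the lowest Tg-labelled array and the highest WT-labelled array both read 11.06.

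C8g, the gamma chain and a lipocalin by fold, moved in opposite directions on the diets. On chow the WT-labelled arrays read 13.45, 13.32, 13.43 and 13.31 and the Tg-labelled ones 13.12, 13.09, 13.06 and 13.27. Western-fed WT-labelled livers read 13.10, 13.33, 13.09 and 13.25 and Tg-labelled ones 13.56, 13.43, 13.47 and 13.45. The groups did not overlap on either diet, with Tg-labelled lower on chow and higher on the Western diet.

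The C8g differences were small: −0.24 on chow (SE 0.07, adjusted p = 0.0397, limma), 0.28 on the Western diet (SE 0.07, adjusted p = 0.0106) and 0.53 for the interaction (SE 0.10, adjusted p = 0.00605). The Western diet raised it by 0.34 in Tg-labelled livers (adjusted p = 0.00558). The chow call was lost when 1 of 5 arrays was left out, Tg-labelled chow replicate 1, 2 or 3 or WT-labelled chow replicate 1 or 3, with −0.24 to −0.21 and adjusted p = 0.0726 to 0.104 without them. C9, which forms the ring of the pore, passed in none of the 5 comparisons, with group means of 11.08, 11.17, 11.41 and 11.44. Of the 5 terminal genes tested in the set, 4 thus rose in Tg-labelled livers on the Western diet, with a median over the 5 of 0.78. Among all genes 6.51% rose there. Hc, the gene of the terminal component C5, was tested outside the set and passed in no comparison. Its group means, WT-labelled first, were 11.13 and 11.36 on chow and 11.28 and 11.60 on the Western diet.

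**Figure D2:**
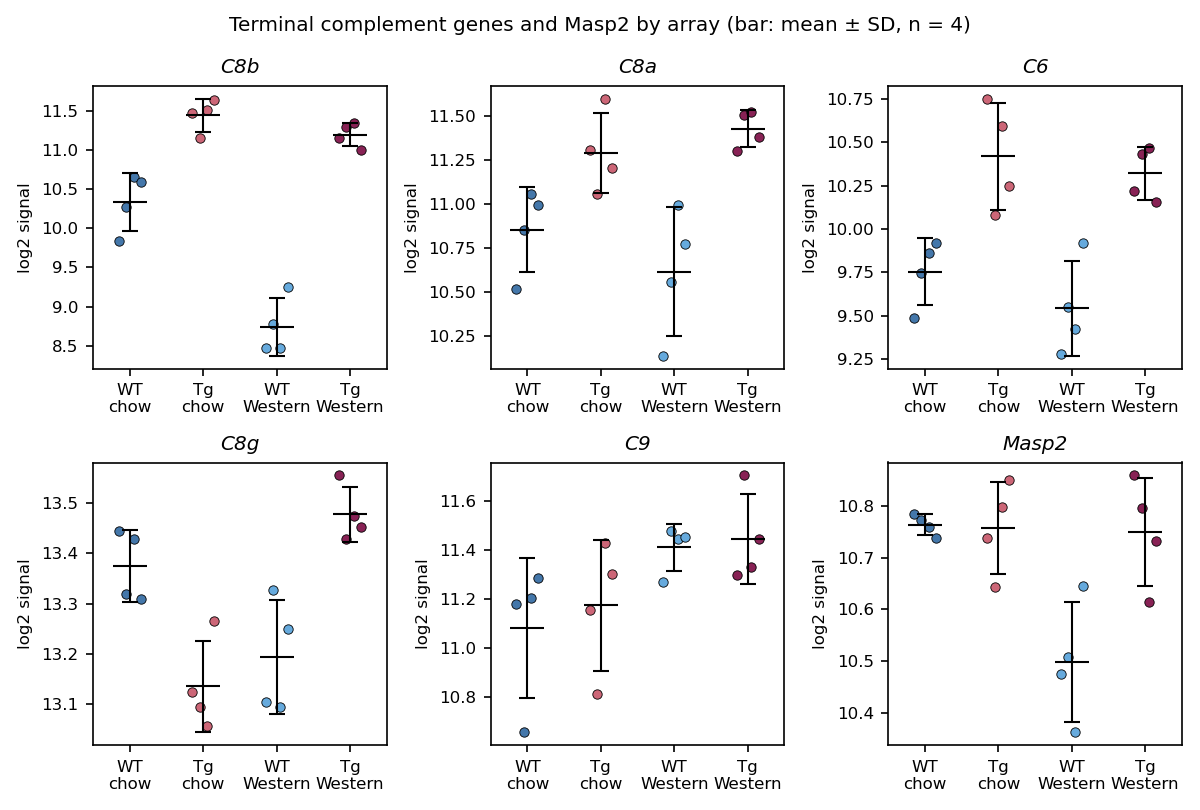
Log2 signal on each of the 16 arrays (points) for 5 terminal complement genes and Masp2 in the 4 groups; the horizontal mark is the group mean and the bar ± 1 SD (n = 4). For C8b and C6 the Tg-labelled arrays all lie above the WT-labelled ones on both diets, and for C8b the WT-labelled arrays on the Western diet sit at 8.47 to 9.25, below every other array.

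In the lectin route, Mbl2, a mannose-binding lectin that recognises microbial sugars, passed in all 5 comparisons. Chow-fed WT-labelled livers read 11.29, 11.30, 11.12 and 11.39, and Tg-labelled ones 10.84, 10.73, 10.63 and 10.44. After Western feeding the WT-labelled arrays read 10.62, 11.08, 10.94 and 10.79 and the Tg-labelled arrays 11.50, 11.14, 11.17 and 11.40. The order of the genotypes was thus reversed by diet, without overlap on either.

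Tg-labelled livers held 1.53-fold less Mbl2 signal on chow (−0.61, SE 0.11, adjusted p = 0.00221, limma) and 1.36-fold more on the Western diet (0.45, SE 0.11, adjusted p = 0.0106). The Western diet lowered Mbl2 by 0.42 in WT-labelled livers (adjusted p = 0.0143), a call lost without WT-labelled Western replicate 1 (−0.34, adjusted p = 0.0553). It raised Mbl2 by 0.64 in Tg-labelled livers (adjusted p = 0.00176). The interaction was 1.06 (SE 0.16, adjusted p = 0.000987).

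The proteases that the lectins activate were lower in WT-labelled livers on the Western diet than on chow. Masp2, which cleaves C4 and C2, read 10.78, 10.77, 10.76 and 10.74 on chow and 10.48, 10.51, 10.36 and 10.65 on the Western diet, without overlap. It fell by 0.27 (SE 0.07, adjusted p = 0.0167, limma), a call lost without WT-labelled Western replicate 3 (−0.22, adjusted p = 0.0667). Masp1, which activates Masp2, read 10.65, 9.97, 10.42 and 10.05 on chow and 9.71, 9.68, 9.87 and 9.94 on the Western diet. It fell by 0.47 (SE 0.16, adjusted p = 0.0456), and the call was lost when any 1 of 10 arrays was left out, with −0.57 to −0.35 over all single arrays left out and an adjusted p of up to 0.121.

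In Tg-labelled livers the diet differences of Masp1 and Masp2 were −0.07 and −0.01 and passed no test. Masp2 was 0.25 higher in Tg-labelled than in WT-labelled livers on the Western diet (adjusted p = 0.0250, limma), a call lost without any 1 of 5 arrays of those 2 groups, at 0.21 to 0.25 and adjusted p = 0.0534 to 0.0895. Mbl1, the other mannose-binding lectin, passed in no comparison and had group means from 10.87 to 11.13. Probe sequences were not used here, so signal shared between the related Mbl1 and Mbl2 transcripts was not checked.

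C1q, the antibody-binding unit that starts the classical route, behaved as a unit of its own. Its 3 chains are encoded by C1qa, C1qb and C1qc, which lie side by side, and all 3 rose on the Western diet in WT-labelled livers. C1qb read 7.35, 8.45, 7.58 and 9.21 in WT-labelled livers on chow and 10.45, 10.30, 10.28 and 10.13 on the Western diet. In Tg-labelled livers it read 9.13, 9.19, 9.16 and 9.84 on chow and 9.48, 9.94, 9.25 and 9.27 on the Western diet. WT-labelled livers on the Western diet were highest without overlap, and WT-labelled livers on chow were the lowest but for replicate 4.

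C1qb was 4.42-fold higher on the Western diet in WT-labelled livers (2.15, SE 0.30, adjusted p = 9.17e-05, limma). C1qc rose there by 1.97 (SE 0.35, adjusted p = 0.000795) and C1qa by 1.27 (SE 0.20, adjusted p = 0.000303), each without overlap of the groups. In Tg-labelled livers the diet differences of the 3 genes were 0.15 to 0.21, and the widest interval, that of C1qc, ran from −0.59 to 0.89. The interaction was −1.99 for C1qb (adjusted p = 0.0112), −1.82 for C1qc (adjusted p = 0.0411) and −1.06 for C1qa (adjusted p = 0.0381). The last 2 were each lost when any 1 of 11 arrays was left out, with an adjusted p of up to 0.0936 for C1qc and 0.0825 for C1qa.

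Between genotypes the C1q genes leaned opposite ways on the diets, and few of these differences passed. On chow C1qb rose by 1.18 in Tg-labelled livers (SE 0.30, adjusted p = 0.0203, limma). C1qc differed by 1.08 (95% interval 0.34 to 1.83, adjusted p = 0.0604) and C1qa by 0.64 (0.21 to 1.06, adjusted p = 0.0550). The C1qb call was lost without WT-labelled chow replicate 1 (0.92, adjusted p = 0.0623), WT-labelled chow replicate 3 (0.99, adjusted p = 0.0724) or Tg-labelled chow replicate 4 (1.01, adjusted p = 0.0666). On the Western diet none of the 3 passed: the differences were −0.81 for C1qb (adjusted p = 0.0800, groups not overlapping), −0.73 for C1qc and −0.42 for C1qa. With median scaling C1qb passed there (−0.89, adjusted p = 0.0406), and with only those 2 groups fitted C1qb and C1qc did (adjusted p = 0.00281 and 0.0189).

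Most of the tested markers of macrophages, stellate cells and endothelial cells rose with the Western diet in WT-labelled livers, where the C1q genes rose too. In other comparisons the marker sets differed. No stellate marker passed between genotypes on chow, and in the interaction 1 of 10 stellate markers and no endothelial marker passed. In bulk liver RNA, more cells of a type and more RNA per cell cannot be told apart. Of 20 listed macrophage symbols 15 were tested; Cd68, Csf1r and Mpeg1 had no row under their symbol, Emr1 is an older symbol of Adgre1, which was tested, Cd5l was under the filter, and none of the 15 was at 0. Their summed signal ran from 5679 to 9747 in WT-labelled livers on chow, 9180 to 14098 in Tg-labelled on chow, 15773 to 21231 in WT-labelled on the Western diet and 10916 to 17291 in Tg-labelled on the Western diet. The groups of lowest and highest mean were thus the same as for the C1q genes. They were also the same for the summed signal of the endothelial markers given below.

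On the Western diet in WT-labelled livers 12 of the 15 macrophage markers rose and 1, Cd163, fell, beside 18.8% of all genes called there, 10.7% of all genes being higher. In Tg-labelled livers 1 rose, Slc40a1. In the interaction 7 were lower and 1 higher. Among those that rose in WT-labelled livers were Lyz2 by 2.61 and Vsig4 by 1.86, a lysozyme and a complement receptor of Kupffer cells. Between genotypes on chow 5 of the 15 were higher in Tg-labelled livers and none lower. On the Western diet 3 were higher (Marco, Cd163 and Timd4) and 2 lower (Gpnmb and Fcer1g). The shares of all genes were 9.95% between genotypes on chow and 15% on the Western diet (8.53% lower). They were 9.73% for diet in Tg-labelled livers and 5.42% for the interaction. Of 10 stellate cell markers 7 rose with the Western diet in WT-labelled livers (median of the 10, 0.48), among them the collagen genes Col1a1 by 0.76 and Col3a1 by 0.73. On the Western diet 6 of the 10 were lower in Tg-labelled livers (median −0.39). Their summed signal ran from 7266 to 7830 in WT-labelled livers on the Western diet and from 4173 to 6362 over the arrays of WT-labelled livers on chow, with 4275 to 5269 and 4759 to 5363 for the Tg-labelled ones on chow and on the Western diet. Of 9 tested endothelial markers 5 rose with the Western diet in WT-labelled livers (median 0.34), 1, Clec4g, was higher in Tg-labelled livers on chow and 1, Stab2, was lower in them on the Western diet. The summed endothelial signal was 2601 to 4777 and 5114 to 6387 in the WT-labelled groups on chow and the Western diet and 4720 to 5651 and 4897 to 5475 in the Tg-labelled ones. The part of these 3 sets of markers in the C1q differences was not tested.

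**Figure D3:**
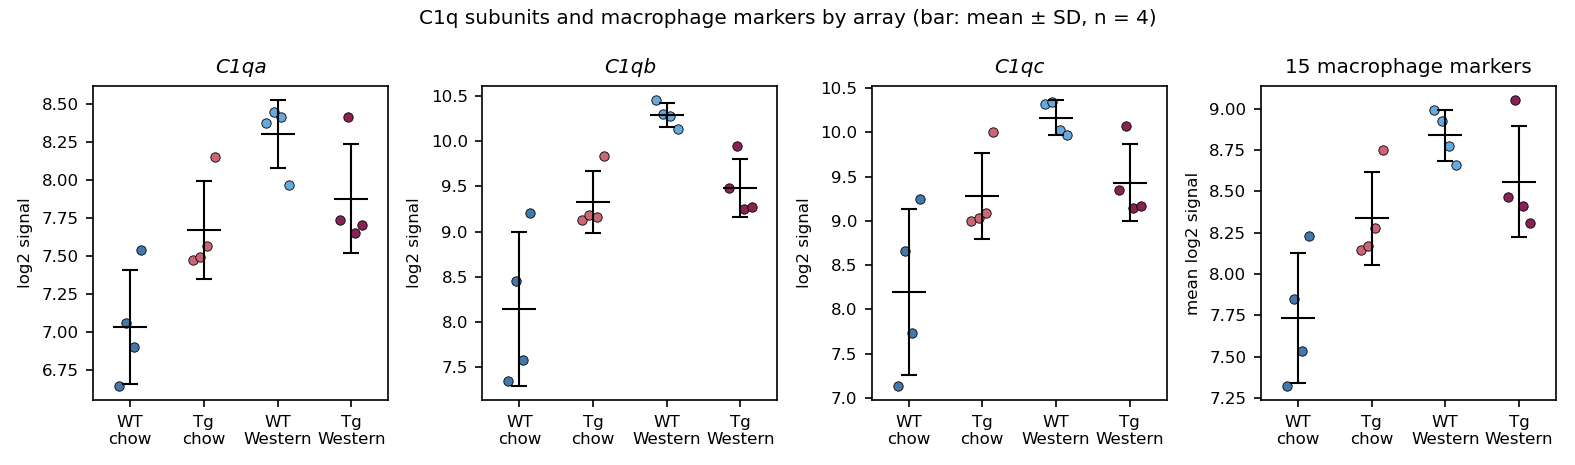
Log2 signal on each of the 16 arrays (points) for C1qa, C1qb and C1qc, and the mean log2 signal of 15 macrophage markers on the same arrays, in the 4 groups; the horizontal mark is the group mean and the bar ± 1 SD (n = 4). In all 4 panels the WT-labelled livers on chow have the lowest mean and those on the Western diet the highest, and Tg-labelled chow replicate 4 stands above the other 3 arrays of its group.

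Downstream of C1q and the lectins, C4b encodes C4, whose cleavage builds the classical C3 convertase with C2. It was 1.65-fold higher on the Western diet in Tg-labelled livers (0.72, SE 0.17, adjusted p = 0.0114, limma), where chow arrays read 11.64, 11.78, 11.62 and 11.28 and Western arrays 12.33, 12.76, 11.77 and 12.33. The groups overlapped by 1 array, Western replicate 3. In WT-labelled livers it read 12.22, 11.64, 12.06 and 11.91 on chow and 12.52, 12.42, 12.54 and 12.38 on the Western diet, without overlap. The difference was 0.51 (adjusted p = 0.0422), and the call was lost when any 1 of 11 arrays was left out (0.40 to 0.59, adjusted p up to 0.124).

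C4b was the only tested member that rose on the Western diet in both genotypes, and its genotype differences passed on neither diet. C4a, a close paralog of C4b, was under the filter, and signal shared between the pair was not checked. C2 had group means of 10.98, 11.15, 11.30 and 11.40 and passed in no comparison. Cfb, factor B of the alternative route and the neighbour of C2, likewise passed in none, with group means from 11.53 to 11.77.

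The inhibitors that stop the convertases rose on the Western diet in Tg-labelled livers. C4bp, a cofactor that dissolves the C4-based convertase, read 11.40, 11.42, 11.34 and 11.37 on chow and 11.88, 11.98, 11.74 and 11.63 on the Western diet, without overlap, and rose by 0.42 (SE 0.09, adjusted p = 0.00539, limma). Cfi, the protease that degrades the active fragments of C3 and C4, read 12.67, 12.79, 12.70 and 12.67 on chow and 13.06, 13.21, 12.87 and 12.98 on the Western diet. It rose by 0.32 (SE 0.10, adjusted p = 0.0393), a call lost when any 1 of 8 arrays was left out, with an adjusted p of up to 0.128. In WT-labelled livers the diet differences were 0.16 for C4bp and −0.08 for Cfi, and neither passed. Cfi was also 0.29 higher in Tg-labelled livers on the Western diet (adjusted p = 0.0465), a call lost when any 1 of 11 arrays was left out.

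On the clotting side no gene passed between genotypes on chow, and 5 of the 15 tested passed on the Western diet, 4 higher and 1 lower in Tg-labelled livers. Of all genes 9.95% passed on chow and 15% on the Western diet, 6.51% higher and 8.53% lower. The 4 were Klkb1, F11, F10 and F7, and the 1 was Pros1. With median scaling Klkb1 passed on chow as well, lower in Tg-labelled livers (−0.32, adjusted p = 0.0355, limma). Klkb1 and F11 are neighbouring genes for related proteases of the contact route, F7 and F10 are neighbouring genes for proteases of the extrinsic and common route, and Pros1 encodes an anticoagulant cofactor.

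Klkb1 encodes plasma prekallikrein, which activates factor XII and releases bradykinin. On chow the 2 genotypes overlapped, at 10.41, 10.60, 10.82 and 10.49 in WT-labelled livers and 10.55, 10.53, 10.45 and 10.29 in Tg-labelled ones. With Western feeding they parted, at 10.16, 10.21, 10.11 and 10.26 against 10.96, 10.99, 10.90 and 10.98. The Western diet thus lowered every WT-labelled and raised every Tg-labelled array beyond the chow arrays of the same genotype.

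The Klkb1 difference between genotypes was 1.71-fold on the Western diet (0.77, SE 0.08, adjusted p = 6.1e-06, limma) and −0.12 on chow (95% interval −0.30 to 0.05). The diet difference was −0.39 in WT-labelled (adjusted p = 0.00308) and 0.50 in Tg-labelled livers (adjusted p = 0.00141). The interaction was 0.90 (SE 0.12, adjusted p = 0.000523), the smallest adjusted p among the 32 genes.

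F11, factor XI, read 8.73, 8.57, 9.13 and 9.17 in chow-fed WT-labelled livers and 9.26, 8.97, 9.07 and 8.74 in chow-fed Tg-labelled ones. Western-fed WT-labelled livers read 8.72, 8.59, 8.46 and 8.71, and Western-fed Tg-labelled livers 9.75, 9.99, 9.49 and 9.60. Tg-labelled livers on the Western diet stood above all other arrays. F11 was 2.13-fold higher in them than in WT-labelled livers on that diet (1.09, SE 0.14, adjusted p = 5.14e-05, limma) and rose by 0.70 over Tg-labelled chow (adjusted p = 0.00525). In WT-labelled livers the diet difference was −0.28 (95% interval −0.58 to 0.02), and the interaction was 0.97 (SE 0.20, adjusted p = 0.00912).

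F10, factor X, where both arms of the cascade meet, read 11.30, 11.42, 11.31 and 11.34 in WT-labelled livers and 11.94, 11.96, 11.56 and 11.85 in Tg-labelled ones on the Western diet, without overlap. It rose by 0.49 (SE 0.08, adjusted p = 0.000758, limma), against 0.04 on chow. The interaction was 0.44 (adjusted p = 0.0375), a call lost when any 1 of 12 arrays was left out, with an adjusted p of up to 0.0808. F7, the protease that pairs with tissue factor, read 8.51, 8.62, 8.34 and 8.75 in WT-labelled livers and 9.06, 8.96, 8.75 and 9.14 in Tg-labelled ones on the Western diet. It rose by 0.42 (adjusted p = 0.0204), a call lost without Tg-labelled Western replicate 1 or 4 or WT-labelled Western replicate 1 or 3, at 0.35 to 0.41 and adjusted p = 0.0528 to 0.0732.

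Pros1 encodes protein S, the cofactor with which activated protein C inactivates factors V and VIII. Chow-fed livers overlapped, at 10.07, 9.75, 10.09 and 10.14 in WT-labelled and 10.27, 10.14, 10.29 and 9.97 in Tg-labelled animals. Western-fed livers did not, at 10.34, 10.35, 10.37 and 10.41 in WT-labelled and 9.77, 9.92, 9.78 and 9.67 in Tg-labelled animals. Its diet pattern was the mirror of Klkb1, with WT-labelled arrays higher and Tg-labelled arrays lower on the Western diet than on chow.

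Pros1 was lower in Tg-labelled livers on the Western diet (log2 difference −0.58, SE 0.09, adjusted p = 0.000309, limma). It rose by 0.35 with the Western diet in WT-labelled livers (adjusted p = 0.0112) and fell by 0.38 in Tg-labelled livers (adjusted p = 0.0129). The interaction was −0.74 (SE 0.13, adjusted p = 0.00318). Proc, protein C itself, passed in no comparison and had group means from 12.04 to 12.23.

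**Figure D4:**
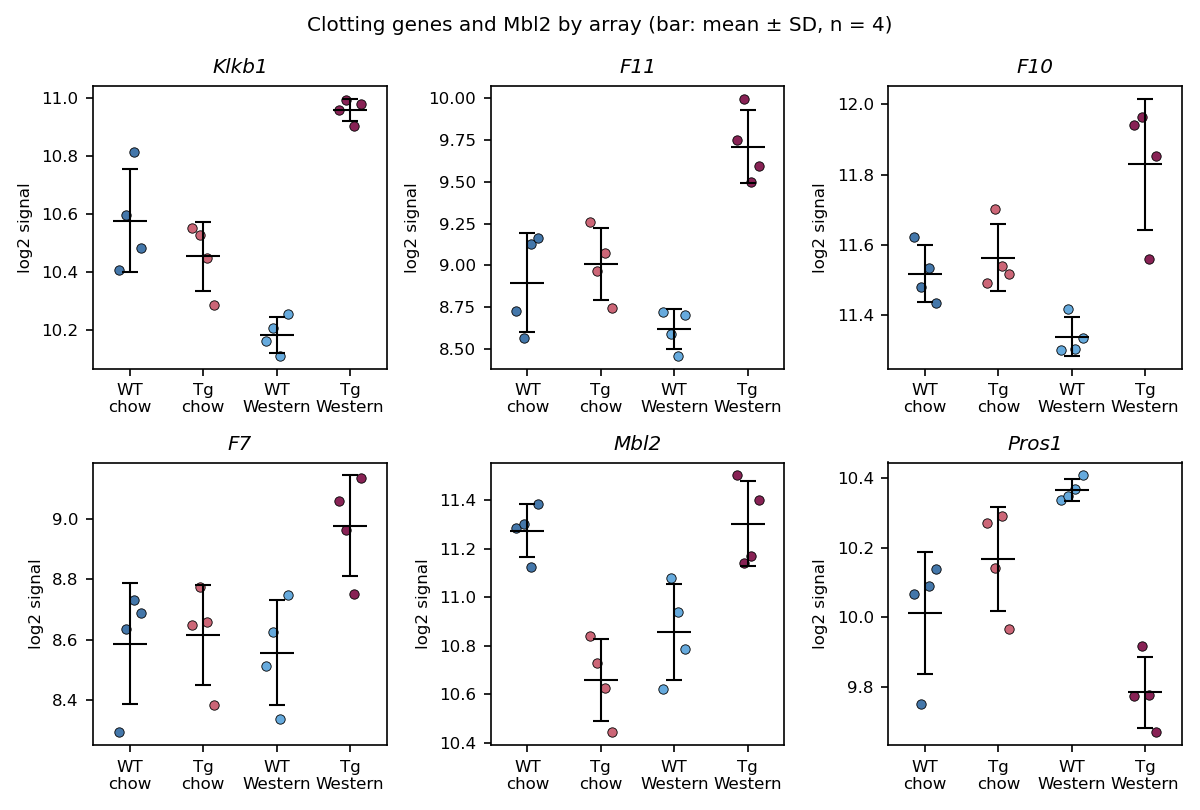
Log2 signal on each of the 16 arrays (points) for the 5 clotting genes that passed between genotypes on the Western diet and for Mbl2, in the 4 groups; the horizontal mark is the group mean and the bar ± 1 SD (n = 4). Tg-labelled livers on the Western diet lie above WT-labelled ones in every panel but that of Pros1, where they read 9.67 to 9.92 against 10.34 to 10.41.

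The other 10 clotting genes tested passed in no comparison. They were F12, Kng1 and F9 of the contact and intrinsic route, F5 and F2 of the common route, the fibrin genes Fga, Fgg and F13b, and the genes of protein C and plasminogen, Proc and Plg. Fga, the fibrinogen alpha chain, had group means from 14.45 to 14.67, and F2, prothrombin, had group means from 12.84 to 12.88. On the Western diet the 2 genotypes did not overlap for Fga. There it passed with median scaling (0.30, adjusted p = 0.0185, limma) and with only those 2 groups fitted (0.21, adjusted p = 0.0337). F5, factor V, varied most among the 10, from 8.53 to 10.02 over the 16 arrays.

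With the 4 complement genes C2, C9, Cfb and Mbl1, 14 genes passed in no comparison. Their differences between genotypes ran from −0.42 to 0.27 on chow and from −0.02 to 0.25 on the Western diet. Without adjustment, p was under 0.05 for 2 of the 14 on chow and 5 on the Western diet. The 95% intervals of the 14 together spanned −0.82 to 0.49 on chow and −0.33 to 0.46 on the Western diet.

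The diet comparisons in the 2 genotypes share no arrays and can be set side by side. Of the 32 genes, 13 were higher on the Western diet in both genotypes, 6 lower in both, 11 lower in WT-labelled but higher in Tg-labelled livers, and 2 the reverse. Klkb1, Mbl2 and Pros1 passed in both genotypes with opposite directions, and C4b passed in both with the same direction. The genotype comparisons on the 2 diets likewise share no arrays: C6 and C8b were higher in Tg-labelled livers on both diets, and C8g and Mbl2 passed on both with opposite directions.

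**Figure D5:**
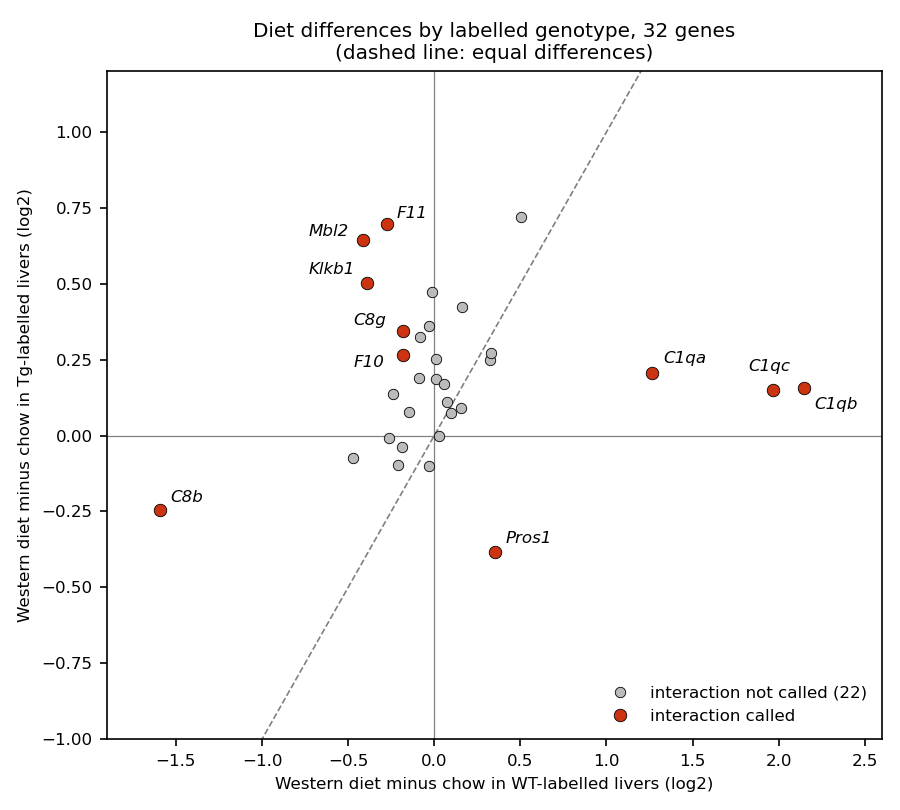
Western diet minus chow in WT-labelled livers (horizontal axis, log2) against the same difference in Tg-labelled livers (vertical axis, log2) for the 32 tested genes. Points on the dashed line would have equal differences; the 10 named red points passed the interaction test, with the C1q genes far right (1.27 to 2.15 against 0.15 to 0.21), C8b far left (−1.59 against −0.25) and Klkb1, Mbl2 and F11 in the upper left.

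Counting arrays that did not overlap gave a like picture. The 4 arrays of one genotype lay all above or all below the other for 5 of the 32 genes on chow and for 12 on the Western diet, against 13.5% and 23.1% of all genes tested. Between diets it was 11 in WT-labelled livers and 8 in Tg-labelled ones, against 21.9% and 17%.

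Other genes of the 2 systems were read from lists that do not include the 32. Of 12 further complement components 4 were tested, and Fcna, a ficolin of the lectin route, was higher in Tg-labelled livers by 1.00 on chow (adjusted p = 0.0102, limma) and by 0.89 on the Western diet (adjusted p = 0.0119). C1s1, a protease of the C1 complex, rose by 0.88 with the Western diet in WT-labelled livers (adjusted p = 0.00379). Of 11 tested regulators 3 were higher and 2 lower in Tg-labelled livers on the Western diet, with a median difference of 0.27 beside 0.01 over all genes. Of all genes 15% passed there, 6.51% higher and 8.53% lower. The 3 were Cpn1 by 0.50 and Cpn2 by 0.45, the subunits of carboxypeptidase N, which trims anaphylatoxins, and Vtn, vitronectin, by 0.28; the 2 were Cd59a at −0.61 and Cd59b at −0.38, membrane proteins that block the terminal pore. The related Cd59a and Cd59b probes may share signal, which was not checked. On chow Cd59a and Cd59b were again lower, at −0.30 and −0.35, and Cr1l, a membrane regulator of C3 convertases, was higher by 0.57. With the Western diet in WT-labelled livers 1 regulator rose, Clu by 0.43, and 2 fell, Cpn1 by 0.40 and Vtn by 0.22, and in Tg-labelled livers none passed. Cpn1 was the 1 of the 11 with a called interaction, 0.54. The shares of all genes were 5.42% for the interaction, 9.95% between genotypes on chow, and 18.8% and 9.73% for diet in WT- and Tg-labelled livers.

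Of 12 further clotting genes tested, 4 were higher and none lower in Tg-labelled livers on the Western diet, and the median difference of the 12 was 0.24. Of all genes 15% passed there, against 9.95% between genotypes on chow and 18.8% and 9.73% for diet in the WT- and Tg-labelled livers. The 4 were Habp2 by 0.49, Kng2 by 0.47, Hgfac by 0.45 and Ggcx by 0.28. Habp2 and Hgfac are proteases related to the clotting factors, Kng2 is a kininogen, and Ggcx is the vitamin K-dependent carboxylase that modifies factors VII, IX and X and protein S. With the Western diet in Tg-labelled livers 5 rose, Proz by 0.56, Habp2 by 0.49, Hgfac by 0.43, Ggcx by 0.41 and Lman1 by 0.34, and Vkorc1l1 fell by 0.51. In WT-labelled livers F8, the cofactor that endothelial cells make, rose by 0.47 and Hgfac fell by 0.35; the endothelial and stellate markers above rose in that comparison too, and their part was not tested. On chow Vkorc1l1 and Kng2 were higher in Tg-labelled livers, by 0.47 and 0.44. The interaction passed for Hgfac at 0.78, Lman1 at 0.54 and Habp2 at 0.51.

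Among 10 tested anticoagulant and fibrinolytic genes, 3 were higher and 2 lower in Tg-labelled livers on the Western diet, with a median of 0.09. There 6.51% of all genes were higher and 8.53% lower. Serpinc1, antithrombin, was higher by 0.40, Hpn by 0.38 and Serpinf2, the plasmin inhibitor, by 0.37, and Anxa2 and Plau were lower at −2.32 and −0.34. Anxa2, a plasminogen receptor on cell surfaces, was also lower on chow, at −1.18, and rose by 1.84 with the Western diet in WT-labelled livers, where Plau, urokinase, rose by 0.26 and Serpinc1 fell by 0.47. In Tg-labelled livers Serpina10 rose by 0.48 with the Western diet, and no gene of the list passed the interaction. Stellate and macrophage markers moved the same way as Anxa2 and Plau in WT-labelled livers with diet, and stellate markers also between genotypes on the Western diet; their part was not tested.

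Receptors for complement fragments and for thrombin were mostly under the filter. Of 4 complement receptors tested, Vsig4 was higher in Tg-labelled livers on chow by 1.43, Cd93 was lower on the Western diet at −0.48, and Vsig4, Cd93 and Itgb2 rose with the Western diet in WT-labelled livers, by 1.86, 0.58 and 0.28. The interaction passed for Vsig4, at −1.85. For diet in WT-labelled livers 18.8% of all genes passed, 10.7% higher. Vsig4 is itself among the macrophage markers above, and the part of the cell markers in these receptor differences was not tested. F2r, the thrombin receptor, rose with the Western diet by 0.98 in WT-labelled livers and 0.42 in Tg-labelled ones, was higher by 0.30 in Tg-labelled livers on chow, and had an interaction of −0.56. The rise of F2r in WT-labelled livers came beside those of the stellate and endothelial markers, whose part was not tested. Pf4, the other of 2 tested receptor and platelet genes, was lower in Tg-labelled livers on the Western diet, at −0.57, and rose by 0.39 with that diet in WT-labelled livers. Of 11 tested transcription factors and acute-phase signalling genes that act upstream of liver plasma proteins, 1 passed in 1 comparison: Il6st rose by 0.51 with the Western diet in WT-labelled livers (adjusted p = 0.00725, limma). In that comparison 18.8% of all genes passed.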

How the data were processed

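Liver RNA of 16 mice was measured on Illumina expression arrays. The deposited scanner files hold linear signal intensity for 25697 rows with no detection p-values or control probes, with no statement of how they were exported in the labels. The authors also deposited log2 values of the same arrays, which kept the scanner order of rows on every array and lay within 0.0675 of quantile-normalized log2 intensities (array medians 6.254 to 6.264, not centred per gene). For the 37 listed genes the row of highest mean in these log2 values was read, which was also the row tested, and the values served as an alternative.

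From the intensities, background was corrected by normexp (offset 50), signals were brought to common quantiles and converted to log2 (limma 3.58.1, R 4.3.3; data.table version 1.17.8). The offset shrinks fold changes of low signals. Rows in the upper 50% by mean were kept, the row of highest mean stood for a gene, and rows with values shared by symbols of different genes were dropped, leaving 7788 genes. One fit with 4 group means (12 residual degrees of freedom) gave all comparisons, two-sided, with Benjamini-Hochberg adjustment over all genes. Precision is limited by the number of arrays, 4 per group, each a separate mouse. The procedure was tested on simulated data. Alternatives covered normalization, background, filter, source of values, row choice, replicate number, groups fitted and single arrays left out.

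The genes, lists and markers were chosen with earlier results of these data known. Per comparison, up to 8 called members of largest difference and the C1q genes were to be named with all values, other members by level, and up to 4 called genes per further list; F7, Masp2, C8g, Cfi and Pros1 were also named where they passed outside that number. Symbols came from the platform annotation, promoters and gene order from RefSeq (GRCm38.p6); the first listed start of a gene was used.

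Replicate numbers are shared by the groups but same-numbered arrays did not deviate together: over 24 pairs the correlation of deviations ran from −0.21 to 0.24 (median 0.01).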

Additional observations from a re-analysis of the deposited data

Results flagged for a closer look

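Within 1 group of 4, a single array stood far from the other 3 for the C1q genes. In Tg-labelled livers on chow, replicate 4 read 8.15 for C1qa (others 7.47 to 7.56), 9.84 for C1qb (others 9.13 to 9.19) and 10.01 for C1qc (others 9.0 to 9.09). In Tg-labelled livers on the Western diet, replicate 2 read 8.42 for C1qa (others 7.65 to 7.74), and in WT-labelled livers on the Western diet replicate 4 read 7.97 for C1qa (others 8.38 to 8.45). These are 5 of 72 gene and group sets examined for 18 genes, and chance gives about 1 in 20. The mean of 15 macrophage markers was also highest on the first 2 of these arrays within their groups, and lowest on the third within its group.

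The genotype effect differed between diets for 10 genes (effect on the Western diet minus that on chow, log2). It was positive for C8b (1.34), Mbl2 (1.06), F11 (0.97), Klkb1 (0.90), C8g (0.53) and F10 (0.44). It was negative for C1qb (−1.99), C1qc (−1.82), C1qa (−1.06) and Pros1 (−0.74). Adjusted p ran from 0.000523 for Klkb1 to 0.0411 for C1qc (limma).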

How the results depend on the processing

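No named difference that passed changed sign under any alternative. Sign changes of differences that passed neither before nor after were not counted. Of 53 named differences, alternatives other than leaving out an array changed a call in 24 of 467 trials, 19 lost and 5 gained. Most of the 53 were named because they passed, and those could only lose a call. Differences outside the 53 also gained calls. With median scaling C4b, C4bp, Cfi and Klkb1 passed on chow, all lower in Tg-labelled livers (adjusted p = 0.0232, 0.00232, 0.0384 and 0.0355, limma). So did C4bp, Cfi and Masp2 in the interaction, and C8g, Cfi and F10 for diet in WT-labelled livers. On chow the count of genes passing between genotypes was 5, but 9 with median scaling (3 higher, 6 lower), which moved the median of all genes by −0.09, and 3 when only those 2 groups were fitted. For diet in WT-labelled livers 5 were higher and 5 lower, but 3 and 8 with median scaling. Without 1 array the count on chow was 3 to 7 (3 without WT-labelled chow replicate 1), 9 to 14 on the Western diet, 7 to 10 for diet in WT-labelled livers, 7 to 11 in Tg-labelled livers and 7 to 10 for the interaction. Median scaling ended the calls of F7 and Masp2 between genotypes on the Western diet (adjusted p = 0.110 and 0.155), of C4b and Pros1 for diet in WT-labelled livers (0.190 and 0.0906) and of C8g and Cfi for diet in Tg-labelled livers (0.0762 and 0.0607), and made that of C1qb between genotypes on the Western diet (0.0406). Keeping the upper 25% of rows made that of C1qa on chow (0.0457). Fitting only the 2 groups compared ended that of C1qb on chow (0.0963) and made those of C1qb and C1qc on the Western diet (0.00281 and 0.0189). With no filter the interactions of C1qa and C1qc did not pass (0.0609 and 0.0693). The shares of all genes passing under these alternatives are not given here. A change in a count of the set therefore cannot be told from a change over all genes. The causes were not tested.

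With replicate number as a block, 6, 12, 9, 8 and 10 genes passed in the order above; C8g on chow and C4b in WT-labelled livers were lost (adjusted p = 0.0588 and 0.0525) and C1qc and C8a on chow gained (0.0455 and 0.0309). The numbers did not pair the arrays. For this block and for the term that follows, too, the shares of all genes passing are not given here. With replicates 1 and 2 set against 3 and 4 as a term, 6, 12, 9, 9 and 10 genes passed; Masp1 in WT-labelled livers was lost (0.0510), and C8a on chow and F10 with diet in Tg-labelled livers were gained (0.0396 and 0.0371).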
